A study of Mus musculus with 26 samples.

Results

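The libraries compared here carry the codes MM and MN, which stand for the same stated treatment: ovalbumin (OVA) plus a synthetic copy, or mimic, of miR-676-3p, a microRNA. There were 5 MM and 5 MN libraries, 10 of the 26 spleen libraries of the series, and they were chosen by the code at the start of their column in the deposited gene table. All 26 were RNA libraries from spleen, taken from BALB/c mice, all female and 8 weeks old. The mimic was given into the tail vein at 7 mg/kg on day 3, and OVA into the peritoneum at 0.05 mg per day on days 1, 3 and 5. Against them stood 11 libraries of mice given OVA without the mimic, coded OS (6) and ON (5), and 5 libraries of mice given saline, coded CT. Each treatment had 20 mice per the labels, which do not say what separates MM from MN or OS from ON, nor whether each library is a separate mouse. The p-values below therefore measure the spread between these libraries, which may be technical. The groups analysed here include no control mimic. Both codes share the mimic injection, the OVA and the schedule, so a difference between them is not one of stated treatment.

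A microRNA guides an Argonaute protein to messenger RNAs, mostly through its seed, the bases next to its 5′ end, and the bound messages are translated less or degraded. A mimic is a synthetic duplex that supplies the mature strand. OVA is a foreign protein used to sensitise BALB/c mice, and the spleen, which filters blood and houses B cells, T cells and red pulp macrophages, is one of the organs in which such a response is mounted. The sequence shared by both codes is the mature mouse miR-676-3p of RefSeq, on the plus strand of chrX:100381151-100381171 (GRCm38.p6). Its seed, bases 2 to 8, is in capitals.
miR-676-3p: cCGUCCUGagguuguugagcu
The seed pairs with CAGGACG in a message. Among the protein-coding genes tested whose 3′ UTR could be read, 366 (3.08%) held that match and 11533 did not. The median MM minus MN difference was 0.03 over the 366 and 0.01 over the 11533, on the log2(FPKM + 1) scale. Of the 366 none was called between the codes, and the 5 protein-coding genes that were called held no match. Only 0.0418% of the coding genes tested were called. Counts of 0 lie near that share and the 3.08% with a match, so they are no result about the seed.

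The deposited values were FPKM, fragments per unit of gene length and of library depth. They were steps of whole reads, which gave 14224832 to 17116273 reads on genes in each MM and MN library, and 1 read per kilobase was worth 0.0544 to 0.0794 FPKM. The spleen genes Tlx1 and Nkx2-5 were present in every MM and MN library, at 13.1 to 21.8 and 4.31 to 11.6 FPKM, while the liver gene Alb reached at most 0.170 FPKM and the lung gene Sftpc and the epidermal gene Krt5 were listed at 0. Libraries stood apart from their code. In MM 2 the genes of a list of exocrine and endocrine pancreas took 15.25% of reads (95% exact binomial interval 15.23% to 15.27%), against 0.00213% to 0.00367% in the other 9. Of the 31 pancreas genes listed 27 reached 1 FPKM there, against 4 in any other. The islet hormone genes Ins2, Ins1, Gcg and Sst did not, at 0.363, 0.224, 0.213 and 0 FPKM in MM 2, while the exocrine gene Ctrb1 had 35800 FPKM. Cytosolic ribosomal protein genes took 3.36% of reads in MM 2 (3.353% to 3.372%), 3.57% in MM 4 (3.564% to 3.582%) and 4.83% to 7.56% in the other MM libraries, against 5.13% to 6.04% in MN. MN 4 had the highest mean of neutrophil genes among the 10. Results are therefore also given without MM 2, MM 4 and MN 4, which leaves 3 MM and 4 MN libraries. Among the saline libraries, CT 4 had 6.62% of reads on mitochondrially encoded genes (6.612% to 6.636%). Intervals cover counting error only.

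Between MM and MN 27 of 15672 genes passed the threshold, an adjusted p below 0.05 (0.172%), with 9 higher (0.0574%) and 18 lower (0.115%) in MM. A gene was tested where its FPKM was at least 1 in at least 5 of the 26 libraries, and it was called by limma with Benjamini-Hochberg adjustment over all genes tested. For all 27 the 5 MM values lay on 1 side of the 5 MN values, as they did for 3.93% of all genes tested. Of the called genes 4 were higher and 14 lower in MM by 2-fold or more on the log2(FPKM + 1) scale. The 27 comprised 18 processed pseudogenes, intronless copies of messages pasted into the genome, and 5 protein-coding genes (0.0418% of 11969). The other 4 were an immunoglobulin joining segment, a lncRNA, a microRNA entry without a symbol and an unclassified transcript. At an unadjusted p below 0.05 there were 1137 genes (7.25%), 512 higher and 625 lower in MM. With MM 2, MM 4 and MN 4 left out limma called 0 genes. The smallest adjusted p was then 0.0516, for Ccn2, and all 27 still had an unadjusted p below 0.05. The libraries kept are among those by which the 27 were called. The groups of all 27 still did not overlap, but leaving libraries out cannot create an overlap, so this is no check of the calls. At that size 16.2% of all genes did not overlap. Leaving out 1 of MM 4, MM 5, MN 1, MN 2 or MN 3 left 1 or 2 calls, leaving out MN 5 left 8, MM 1 left 15 and MN 4 left 16, and leaving out the saline library CT 4 gave 54. Ccn2 was called in each of these.

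**Figure D1:**
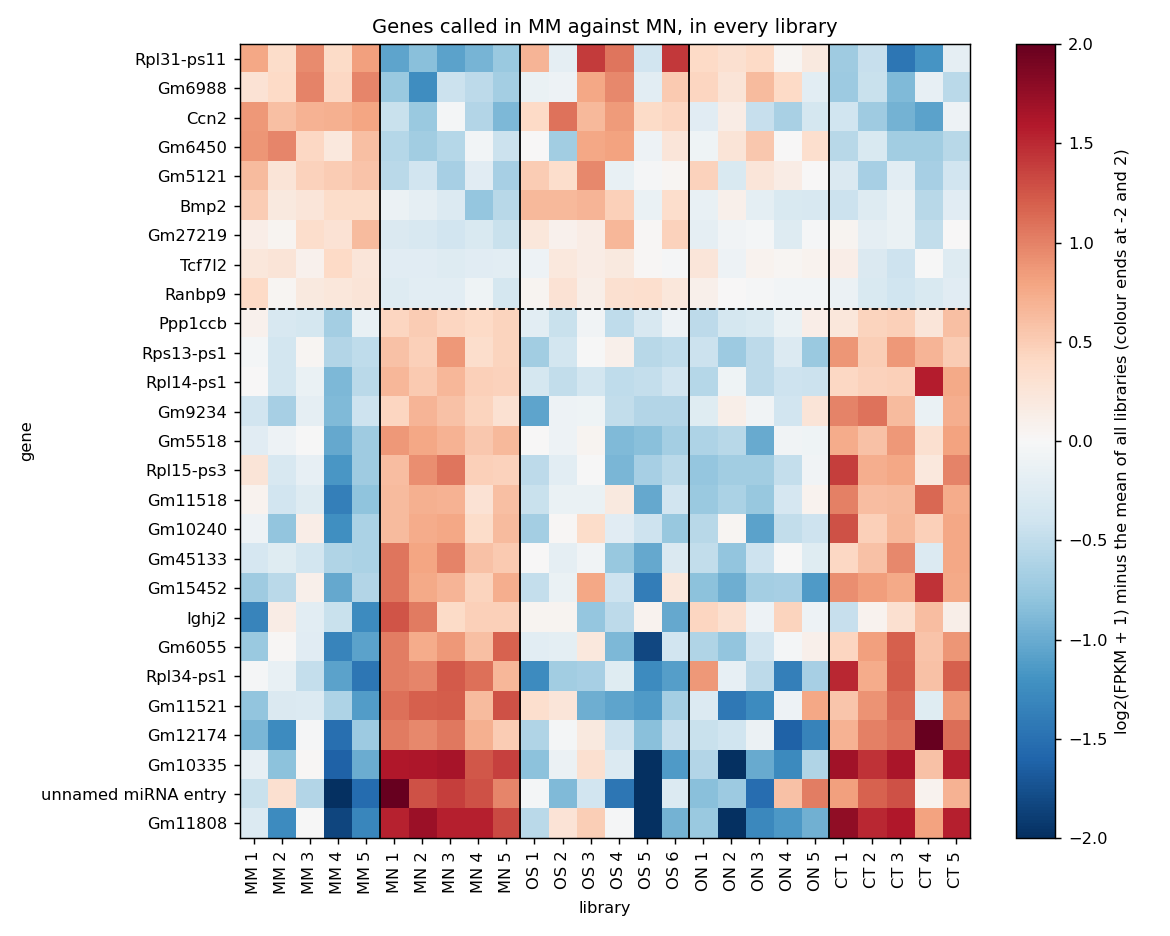
Each row is 1 of the 27 genes called between MM and MN and each column 1 of the 26 libraries, in the order MM, MN, OS, ON and CT. Colour gives log2(FPKM + 1) minus that gene's mean over all libraries, and the dashed line parts the 9 genes higher in MM from the 18 lower. The MM block differs from the MN block in every row, as the choice of the rows requires.

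Of the called coding genes 4 were higher in MM: Ccn2, Bmp2, Tcf7l2 and Ranbp9. Ccn2 encodes a secreted matricellular protein and is a textbook target of the YAP and TEAD factors and of TGF-beta. It had 94.0, 78.8, 83.9, 84.6 and 89.5 FPKM in MM 1 to MM 5, against 37.4, 30.2, 50.2, 34.0 and 27.1 FPKM in MN 1 to MN 5. Every MM library lay far above every MN library, and the MM values were closer together. The means were 86.2 ± 5.82 FPKM in MM and 35.8 ± 8.95 FPKM in MN (SD, n = 5 each), a log2 difference of 1.27 ± 0.19 (SE, adjusted p = 0.00611). Ccn2 also parted OS, at 81.7 ± 17.4 FPKM, from ON, at 42.1 ± 9.39 FPKM (log2 difference 0.94, adjusted p = 0.0288, 1 of 29 genes called between OS and ON, 0.185%), and it averaged 33.5 ± 9.76 FPKM in CT.

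Bmp2, a secreted ligand of the TGF-beta superfamily, had 16.7, 13.3, 13.8, 15.1 and 15.1 FPKM in MM, against 10.5, 10.1, 9.37, 6.31 and 7.49 FPKM in MN. The groups did not overlap, and MN 4 and MN 5 were the lowest (log2 difference 0.71 ± 0.14, adjusted p = 0.0352). Tcf7l2, a DNA-binding partner of beta-catenin in Wnt signalling, had 3.33, 3.44, 2.90, 3.89 and 3.39 FPKM in MM, against 2.15, 2.16, 2.10, 2.15 and 2.21 FPKM in MN. Its MN values were nearly identical, and the lowest MM value lay above all of them (log2 difference 0.47 ± 0.10, adjusted p = 0.0357). Ranbp9, a scaffold of the CTLH ubiquitin ligase, had 19.9, 15.3, 17.2, 17.6 and 17.9 FPKM in MM, against 12.3, 12.7, 12.7, 14.0 and 11.4 FPKM in MN. MM 2 was the lowest MM library and still above every MN library (log2 difference 0.45 ± 0.08, adjusted p = 0.0194). In mice without the mimic, Bmp2 averaged 16.4 ± 3.33 FPKM in OS, 10.2 ± 1.35 FPKM in ON and 9.08 ± 1.17 FPKM in CT. Tcf7l2 averaged 2.90 ± 0.35 FPKM in OS, 2.87 ± 0.34 FPKM in ON and 2.32 ± 0.52 FPKM in CT, and Ranbp9 17.6 ± 1.50, 14.9 ± 0.72 and 12.2 ± 0.99 FPKM in the same groups. In bulk tissue, fewer cells of a type and less RNA per cell cannot be told apart.

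**Figure D2:**
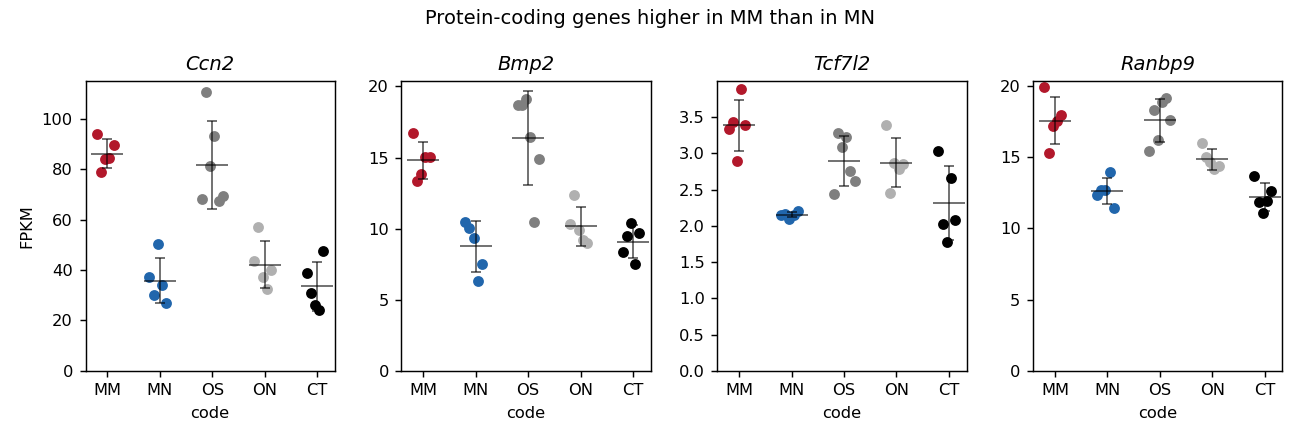
FPKM (linear axes) of Ccn2, Bmp2, Tcf7l2 and Ranbp9 in every library, by code from MM to CT, with the mean and SD of each code. For Ccn2 the MM libraries lie between 78.8 and 94.0 FPKM, above all MN libraries, whose highest is 50.2 FPKM.

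The fifth called coding gene, Gm11808, is a predicted locus and was lower in MM. It and the pseudogenes below were described after their values were seen. Gm11808 had 104, 52.1, 126, 34.6 and 50.5 FPKM in MM, against 368, 413, 371, 370 and 314 FPKM in MN. MN was high and even, and MM 1 and MM 3, the highest MM libraries, stayed far below it. The log2 difference was -2.46 ± 0.46 (adjusted p = 0.0257). Its level is as uncertain as those of the pseudogenes below, since reads may be split between near-identical copies.

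Processed pseudogenes held 18 of the 27 calls, 5 higher and 13 lower in MM. Calls made up 1.87% of the 908 annotated as processed and 2.38% of the 42 annotated as transcribed processed, against 0.172% of all genes tested. Their copies matter for reading the values, because a short read from a coding gene can be counted at a near-identical pseudogene, and all pseudogene levels are uncertain for that reason. The stretches below, 60 bases each, were chosen to show a pseudogene that was higher in MM and carries several mismatches and one that was lower and carries few. They come from GENCODE vM21 transcripts (GRCm38), 5′ to 3′, each above its closest coding transcript, with the differing bases in capitals.
Gm6988 (chromosome 12, transcript bases 289 to 348): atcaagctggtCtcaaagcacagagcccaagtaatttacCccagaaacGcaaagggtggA
Rps25 (transcript bases 905 to 964): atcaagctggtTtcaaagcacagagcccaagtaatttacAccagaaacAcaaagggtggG
Gm6450 (chromosome 5, transcript bases 228 to 287): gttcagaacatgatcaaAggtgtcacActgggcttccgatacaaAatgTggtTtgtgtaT
Rpl9 (transcript bases 299 to 358): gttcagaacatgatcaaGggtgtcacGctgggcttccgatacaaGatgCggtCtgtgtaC
Rps13-ps1 (chromosome 8, transcript bases 401 to 460): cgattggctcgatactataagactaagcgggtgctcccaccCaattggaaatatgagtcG
Rps13 (transcript bases 458 to 517): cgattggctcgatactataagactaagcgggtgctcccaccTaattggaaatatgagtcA
Gm10335 (chromosome 10, transcript bases 189 to 248): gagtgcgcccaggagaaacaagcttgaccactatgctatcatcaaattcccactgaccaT
Rpl23a (transcript bases 230 to 289): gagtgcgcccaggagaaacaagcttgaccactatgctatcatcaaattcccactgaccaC
Each stretch shown is the gap-free one with the most differing bases in its alignment. Gm6988 differed from Rps25 at 4 of the 60 bases and Gm6450 from Rpl9 at 6. Rps13-ps1 differed from Rps13 at 2. Over the whole alignment the differing bases were 9 of 375 for Gm6988, 16 of 574 for Gm6450 and 2 of 522 for Rps13-ps1. Pairs not shown went against the contrast: in such a stretch Rpl31-ps11, higher in MM, differed at 2 bases and Gm9234, lower in MM, at 4.

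The 5 pseudogenes higher in MM were Gm6988, Rpl31-ps11, Gm5121, Gm6450 and Gm27219, of which Gm6988, Rpl31-ps11, Gm6450 and Gm27219 had their closest coding transcripts in Rps25, Rpl31, Rpl9 and Nop56. The first 3 of these parents are ribosomal protein genes, and Nop56 is a core protein of small nucleolar ribonucleoproteins. Gm6988 had 6.39, 6.99, 11.1, 7.03 and 10.9 FPKM in MM, against 2.63, 1.57, 3.48, 3.19 and 2.80 FPKM in MN. The groups were well apart, with MM 3 and MM 5 highest (log2 difference 1.34 ± 0.22, adjusted p = 0.0194). Rpl31-ps11 had 3.63, 2.53, 4.22, 2.53 and 3.82 FPKM in MM, against 0.307, 0.519, 0.289, 0.433 and 0.618 FPKM in MN, so that every MN library lay below 1 FPKM and every MM library above 2 (log2 difference 1.59 ± 0.28, adjusted p = 0.0194). Gm6450 had 0.880 to 2.21 FPKM in MM, against 0 to 0.569 FPKM in MN, and Gm5121 had 0.886 to 1.46 FPKM in MM, against 0 to 0.347 FPKM in MN. Both were listed at 0 in at least 1 MN library. Gm27219 had 0.749 to 1.62 FPKM in MM, against 0.236 to 0.391 FPKM in MN. Rps25, Rpl31, Rpl9 and Nop56 were not called: Rps25 averaged 239 FPKM in MM and 257 FPKM in MN, and Rpl31 averaged 313 FPKM in MM and 332 FPKM in MN. Their groups overlapped.

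Of the 13 pseudogenes lower in MM, 8 had a ribosomal protein gene as their closest coding gene: Gm12174 (Rpl7), Rps13-ps1 (Rps13), Rpl14-ps1 (Rpl14), Rpl34-ps1 (Rpl34), Gm10335 (Rpl23a), Gm11518 (Rpl27), Rpl15-ps3 (Rpl15) and Gm10240 (Rpl21). Gm12174 had 4.28, 3.12, 8.80, 2.48 and 5.02 FPKM in MM, against 19.4, 18.4, 19.7, 15.3 and 13.1 FPKM in MN. The highest MM library, MM 3, stayed under the lowest MN library (log2 difference -1.74 ± 0.31, adjusted p = 0.0194). Gm10335 had 45.1, 28.5, 51.7, 15.9 and 25.1 FPKM in MM, against 156, 158, 162, 122 and 133 FPKM in MN, with MM 4 lowest of all (log2 difference -2.21 ± 0.44, adjusted p = 0.0352). Rpl14-ps1, the most abundant of these, had 195, 151, 178, 104 and 134 FPKM in MM, against 309, 281, 308, 271 and 269 FPKM in MN. No MM library reached the MN range (log2 difference -0.95 ± 0.18, adjusted p = 0.0257). Rps13-ps1 had 7.32, 5.61, 7.73, 4.69 and 5.02 FPKM in MM, against 11.8, 10.9, 14.6, 9.91 and 10.6 FPKM in MN (log2 difference -0.84 ± 0.15, adjusted p = 0.0194). The parents differed less. Rpl14 averaged 328 ± 74.5 FPKM in MM and 381 ± 17.6 FPKM in MN (log2 difference -0.24, adjusted p = 0.759), Rps13 161 ± 67.1 FPKM in MM and 199.9 ± 13.3 FPKM in MN (-0.40, adjusted p = 0.741), and Rpl7 and Rpl23a had differences of 0.20 and 0.47, above 0. Whether a pseudogene and its parent differ from each other in their response was not tested.

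The other 5 pseudogenes lower in MM copied Ppp1cc, a catalytic subunit of protein phosphatase 1, Map1lc3b, the autophagosome protein LC3B, Hmgb1, a chromatin protein, Ppia, cyclophilin A, and Cks2, a partner of cyclin-dependent kinases. Ppp1ccb had 5.36 to 9.81 FPKM in MM, against 12.4 to 13.4 FPKM in MN, whose 5 libraries were close together (log2 difference -0.72 ± 0.13, adjusted p = 0.0194). Gm6055, the copy of Map1lc3b, had 8.16 to 22.3 FPKM in MM, against 33.4 to 50.4 FPKM in MN, while Map1lc3b averaged 20.6 FPKM in MM and 21.0 FPKM in MN. Gm5518, the copy of Hmgb1, had 31.5 to 64.9 FPKM in MM, against 95.4 to 120 FPKM in MN, while Hmgb1 averaged 19.0 FPKM in MM and 16.2 FPKM in MN. Gm15452, the copy of Cks2, had 9.35 to 21.7 FPKM in MM, against 27.7 to 43.0 FPKM in MN, and Gm9234, the copy of Ppia, 0.684 to 1.74 FPKM in MM, against 2.84 to 3.98 FPKM in MN. None of these 5 parents was called.

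The called pseudogenes were set against their identity to the closest coding copy. Of 950 processed pseudogenes tested, 907 aligned to a coding transcript over at least 80% of their length. The 353 with an identity of 99% to 100% had a median difference of -0.09 and held 10 calls, all lower in MM. The 183 with an identity of 95% to 98% had a median of 0.09 and held 4 calls, all higher. Between them, the 179 at 98% to 99% had a median of 0.01, with 1 call higher and 3 lower. Below 95% there were no calls, and the medians were -0.08 for 84 pseudogenes at 90% to 95% and -0.11 for 108 below 90%. So the medians did not fall steadily with identity. The called pseudogenes higher in MM were 96.8% to 98.7% identical to their coding transcript and those lower in MM 98.2% to 100%. Pseudogenes of one family share reads and are no independent replicates, and no test was made of this pattern.

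**Figure D3:**
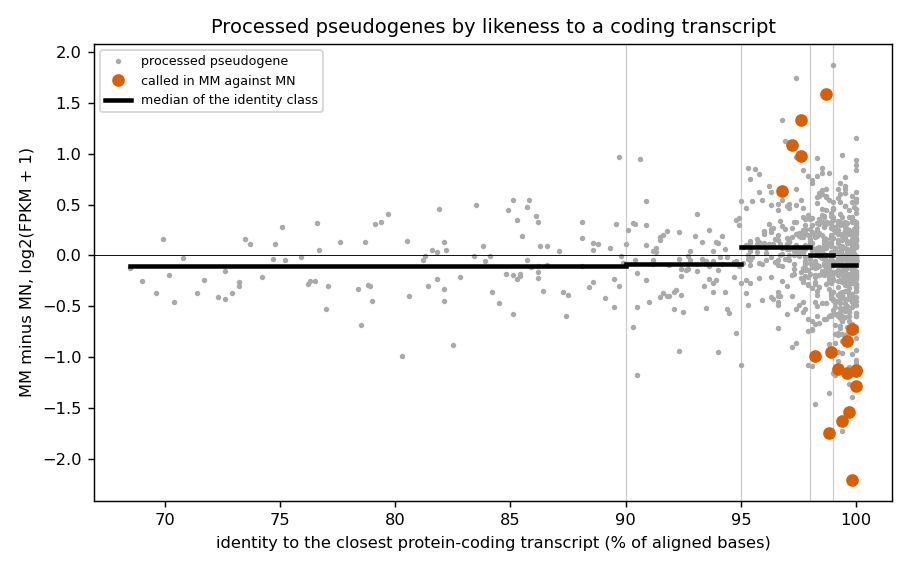
Each point is 1 processed pseudogene, with its identity to the closest coding transcript (percent) on the horizontal axis and its MM minus MN log2 difference on the vertical axis; called pseudogenes are orange and bars give the median of each identity class. The orange points above 0 lie at 96.8% to 98.7% identity, and those below 0 at 98.2% to 100%.

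Among the remaining calls, Ighj2, a joining segment of the immunoglobulin heavy chain, had 5.71, 17.5, 13.4, 11.2 and 6.0 FPKM in MM, against 38.8, 33.3, 20.7, 22.3 and 22.1 FPKM in MN. All MM values lay below all MN values, and MN 1 and MN 2 were the highest (log2 difference -1.34 ± 0.27, adjusted p = 0.0357). It averaged 12.6 FPKM in OS, 18.4 FPKM in ON and 17.9 FPKM in CT. The unclassified transcript Gm45133 had 1.08 to 1.75 FPKM in MM, against 3.64 to 5.77 FPKM in MN (log2 difference -1.23 ± 0.21, adjusted p = 0.0194), and the lncRNA Gm11521 had 0.912 to 2.42 FPKM in MM, against 5.46 to 9.03 FPKM in MN (-1.70 ± 0.35, adjusted p = 0.0383). The codes were far apart in both genes. The microRNA entry without a symbol, on chromosome 12 and 78 bases long, had 0.719 to 8.14 FPKM in MM, against 13.4 to 28.2 FPKM in MN (-2.25 ± 0.46, adjusted p = 0.0357). In the deposited coordinates it lies close to Ighj2 and on the same strand. Whether its call is independent of that of Ighj2 was not tested. Reads on so short an entry in a poly(A) library do not measure the mature microRNA.

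The 27 genes were then read in the mice without the mimic. For OVA without the mimic (OS and ON together) against saline, a comparison added after the values were seen, 340 genes were called (2.17%), 123 higher (0.785%) and 217 lower (1.38%) with OVA. This comparison shares no library with MM against MN, but both come from the same fit and share its variance estimate. All 27 had the same sign in both, and 23 of the 27 were called in both. Without MM 2, ON 2 and ON 3, the libraries with pancreas reads, 108 genes were called with OVA against saline, 19 of the 27 among them. With library weights 1435 were called, 25 of the 27 among them, and all 27 kept the same sign in both fits. Gm11808 averaged 73.4 FPKM in MM and 367 FPKM in MN, and 103 FPKM in OS, 53.8 FPKM in ON and 354 FPKM in CT. Gm10335 averaged 33.3 FPKM in MM and 146 FPKM in MN, and 35.0 FPKM in OS, 24.0 FPKM in ON and 139 FPKM in CT. For both genes the MM mean lay between those of OS and ON, and the MN mean lay close to that of CT. Rpl14-ps1 averaged 152 FPKM in MM and 288 FPKM in MN, and 144 FPKM in OS, 147 FPKM in ON and 341 FPKM in CT. In 11 of the 27, all MM, OS and ON libraries lay on 1 side of all MN and CT libraries, as they did in 28 of all 15672 genes (0.179%). These shares are not like for like. All 27 had MM apart from MN, which is part of the criterion and held in only 616 of all genes (3.93%). The 4 genes not called with OVA were Tcf7l2, Ighj2, Gm27219 and the unnamed microRNA entry.

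Over the 217 genes lower with OVA than with saline, the MM minus MN difference was below 0 in 214, with a median of -0.45. Over the 123 genes higher with OVA it was above 0 in 119, with a median of 0.31. Without the libraries with pancreas reads the counts were 63 of 65 lower (median -0.70) and 42 of 43 higher (median 0.40), and without MM 2, MM 4 and MN 4 197 of 232 (median -0.28) and 96 of 120 (median 0.27). Across all 15672 genes the MM minus MN difference had a Pearson r of 0.499 and a Spearman rho of 0.422 with the OVA minus saline difference. The r was 0.675 across 950 processed pseudogenes and 0.56 across 11969 coding genes. With the OS minus ON difference it was 0.196 across all genes and 0.872 across the 30 immediate early genes described below. Genes share libraries and reads and are not independent, so these values describe the 2 differences only. The r with OVA minus saline was 0.297 without MM 2, MM 4 and MN 4, 0.374 without the libraries that hold pancreas reads, 0.565 without CT 4, and 0.399 to 0.558 when any 1 MM or MN library was left out.

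**Figure D4:**
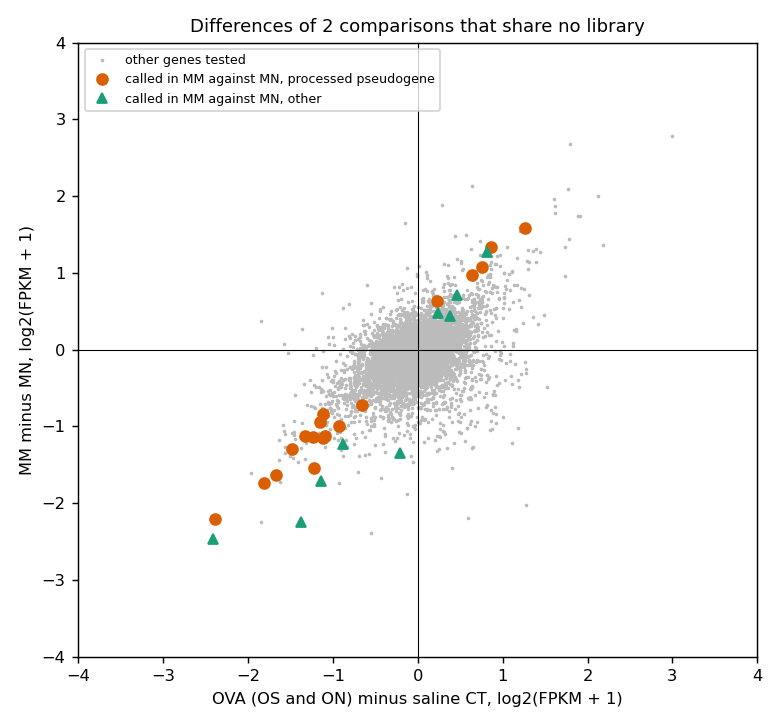
Each point is 1 gene tested, with its OVA (OS and ON) minus CT log2 difference on the horizontal axis and its MM minus MN log2 difference on the vertical axis, both from -4 to 4; the genes called between MM and MN stand out. All 27 lie either above 0 on both axes or below 0 on both.

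Against saline, limma called 47 genes in MM (0.3%) and 0 in MN, where 451 genes had an unadjusted p below 0.05 (2.88%). Both comparisons use the same 5 saline libraries. With library weights the counts were 518 for MM and 0 for MN. MM against saline gave 11 calls without MM 2, MM 4 and MN 4. Ccn2 stood 1.38 above CT in MM and 0.11 above CT in MN (log2), and Gm11808 stood at -2.38 in MM and 0.08 in MN. A test of the MM minus MN difference against the OS minus ON difference, which asks whether the 2 pairs of codes of a like treatment differ alike, called 1 gene (0.00638%). It was Gm12966, a processed pseudogene, with 7.86 to 13.2 FPKM in MM, 11.5 to 17.2 FPKM in MN, 13.7 to 20.4 FPKM in OS and 7.48 to 11.9 FPKM in ON. Its MM minus MN difference was -0.43, its OS minus ON difference 0.75, and the gap between them -1.19 ± 0.19 (adjusted p = 0.0345). That call was lost without MM 2, MM 4 and MN 4, without the libraries holding pancreas reads and in a fit of those 4 codes only. For Ccn2 the gap was 0.33 ± 0.26 (adjusted p = 0.920).

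To fill 15 named genes in each direction, the genes with the smallest p-values that missed the threshold followed the called ones. Among those with higher values in MM, Errfi1, which restrains EGF receptor signalling, had 95.2, 97.0, 81.7, 79.5 and 83.7 FPKM in MM, against 37.7, 31.9, 44.9, 36.5 and 24.9 FPKM in MN. Every MM library lay far above every MN library (log2 difference 1.31 ± 0.31, adjusted p = 0.0885). Plk2, a kinase induced by serum and stress, had 6.85 to 10.9 FPKM in MM, against 2.75 to 4.66 FPKM in MN (0.98 ± 0.23, adjusted p = 0.0857). Hoxa5, a homeobox factor, had 2.78 to 5.26 FPKM in MM, against 1.35 to 2.44 FPKM in MN. The differences of Tbl1xr1, Cd164, Sppl3, Lrrc58, Abhd17c, Taf4, Smndc1 and Csnk2a2 were smaller, 0.29 to 0.51, and of these only Tbl1xr1 overlapped between the groups. On the other side, the zinc transporter Slc39a7 came nearest to the threshold, with 1.08, 1.51, 1.42, 0.782 and 1.51 FPKM in MM, against 3.63, 3.56, 4.32, 3.26 and 2.77 FPKM in MN. Every MN library lay above every MM library (log2 difference -1.0 ± 0.22, adjusted p = 0.0549). Rnf5, a ubiquitin ligase of the endoplasmic reticulum, had 7.68 to 13.7 FPKM in MM, against 18.4 to 20.8 FPKM in MN (adjusted p = 0.0857), and Snrpf, a core spliceosomal protein, 4.11 to 25.2 FPKM in MM, against 27.8 to 36.0 FPKM in MN. Ptpn7, Arpp19 and Llph had differences of -0.54 to -0.30 without overlap. The microRNA entries Mir7048 and Mir301 are 58 and 86 bases long and had values of 0 in 3 and 2 MM libraries.

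Gene lists were described by counts, beside the median of -0.00 over all 15672 genes, of which 49.1% lay above 0. Since only 0.172% of all genes were called, a list with 0 called lies near that share. The pancreas list had a median of 2.05 over its 4 members tested, which were high in MM 2 alone among the 10 libraries. Immediate early genes, which cells switch on within minutes of a stimulus, had the next highest median. Of 30 tested, 29 lay above 0 with a median of 0.88, 1 was called (Ccn2), 13 had an unadjusted p below 0.05 with a higher value in MM (3.27% of all genes), and in 11 every MM library lay above every MN library (2.02% of all genes, and 1.91% for the opposite order). Dusp1, a phosphatase that shuts off MAP kinases, had 198, 113, 123, 91.4 and 108 FPKM in MM, against 55.9, 24.7, 63.5, 46.3 and 45.5 FPKM in MN. MM 1 was highest and MN 2 lowest, with no overlap (log2 difference 1.42 ± 0.40, adjusted p = 0.189). Fos, a subunit of the AP-1 factor, had 170, 44.0, 44.4, 38.8 and 86.0 FPKM in MM, against 16.4, 2.47, 28.1, 24.1 and 15.9 FPKM in MN, again with MM 1 highest and MN 2 lowest (2.13 ± 0.70, adjusted p = 0.352). Ccn1, a matricellular relative of Ccn2, had 54.5 to 223 FPKM in MM, against 2.52 to 43.3 FPKM in MN (adjusted p = 0.295), and the orphan receptor Nr4a2 had 1.96 to 3.54 FPKM in MM, against 0.416 to 1.27 FPKM in MN (0.95 ± 0.26, adjusted p = 0.168). Junb overlapped between the codes, at 71.6 to 266 FPKM in MM and 36.3 to 73.6 FPKM in MN. All 30 lay above 0 without MM 2, MM 4 and MN 4, with a median of 1.2. The list was thus not particular to MM and MN. In OS minus ON all 30 lay above 0, with a higher median than in MM minus MN. Of the 30, 8 were called between OS and ON (0.185% of all genes). The test of the MM minus MN difference against the OS minus ON difference called 0 of the 30. In the mice without the mimic Dusp1 averaged 156 FPKM in OS, 46.9 FPKM in ON and 49.99 FPKM in CT.

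The promoters of these genes were searched for the cyclic AMP response element, TGACGTCA, the site to which CREB binds. RefSeq promoters (250 bases before to 50 after the start, GRCm38.p6) could be matched for 25 of the 30 genes, without Ccn2. The motif stood in 4 of them (16%), Btg2, Ppp1r15a, Maff and Dusp1, against 2.03% of 27025 gene symbols. It reads the same on both strands. Searched on both strands in the same promoters, the TEAD site GGAATG stood in 5 (20%, against 16.6% of gene symbols), the AP-1 site TGACTCA in 1 (4%, against 5.95%) and the outer frame of the serum response element (CC and GG with any 6 bases between) in 24 (96%, against 75.1%). The Dusp1 promoter is shown because Dusp1 did not overlap between the codes, on the minus strand of chr17:26508423-26508722, with the motif in capitals.
Dusp1 promoter: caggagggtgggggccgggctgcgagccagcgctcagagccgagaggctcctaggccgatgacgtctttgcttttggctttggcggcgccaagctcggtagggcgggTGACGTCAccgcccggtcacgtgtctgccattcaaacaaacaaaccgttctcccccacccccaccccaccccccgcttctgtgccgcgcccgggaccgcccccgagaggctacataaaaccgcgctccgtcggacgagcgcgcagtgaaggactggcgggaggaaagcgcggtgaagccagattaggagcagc
Btg2, an antiproliferative gene with the same motif, had 131 to 274 FPKM in MM, against 103 to 138 FPKM in MN, and the groups overlapped. A match is a description of letters and does not show binding.

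Inflammatory cytokines and chemokines lay above 0 in 16 of 17, with a median of 0.63 and 0 called. At an unadjusted p below 0.05 4 were higher in MM (3.27% of all genes). In OS minus ON 16 of the 17 also lay above 0, with a median of 0.77 and 0 called. Il1b, the secreted form of interleukin 1, had 64.5, 57.9, 50.2, 59.5 and 59.8 FPKM in MM, against 23.5, 15.2, 34.5, 28.3 and 39.1 FPKM in MN. All MM libraries were close together and above all MN libraries (log2 difference 1.09 ± 0.48, adjusted p = 0.604). The fit uses 1 spread per gene over all 26 libraries, and the other codes varied more, with 57.8 ± 22.1 FPKM in OS, 32.0 ± 34.8 FPKM in ON and 41.1 ± 22.0 FPKM in CT. Il10, an anti-inflammatory cytokine, had 2.00 to 5.36 FPKM in MM, against 0.598 to 1.91 FPKM in MN, and Ptgs2, the inducible cyclooxygenase, 1.49 to 4.48 FPKM in MM, against 0.0142 to 0.986 FPKM in MN. Neither overlapped or passed the threshold. The neutrophil attractant Cxcl1 had 5.00 to 15.8 FPKM in MM, with MM 2 highest, against 0.487 to 5.11 FPKM in MN, and the groups overlapped. Glucocorticoid response genes lay above 0 in 11 of 14, with a median of 0.57. Pdk4, a mitochondrial kinase induced by fasting and glucocorticoids, had 20.2 to 28.5 FPKM in MM, against 10.4 to 15.7 FPKM in MN (adjusted p = 0.169), whereas Zbtb16, another glucocorticoid target, had 0.822 to 1.11 FPKM in MM, against 1.22 to 4.22 FPKM in MN (adjusted p = 0.343). Core clock genes lay above 0 in 16 of 17, but with a median of 0.09; Per1 had 22.2 to 40.4 FPKM in MM, against 12.7 to 21.0 FPKM in MN.

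**Figure D5:**
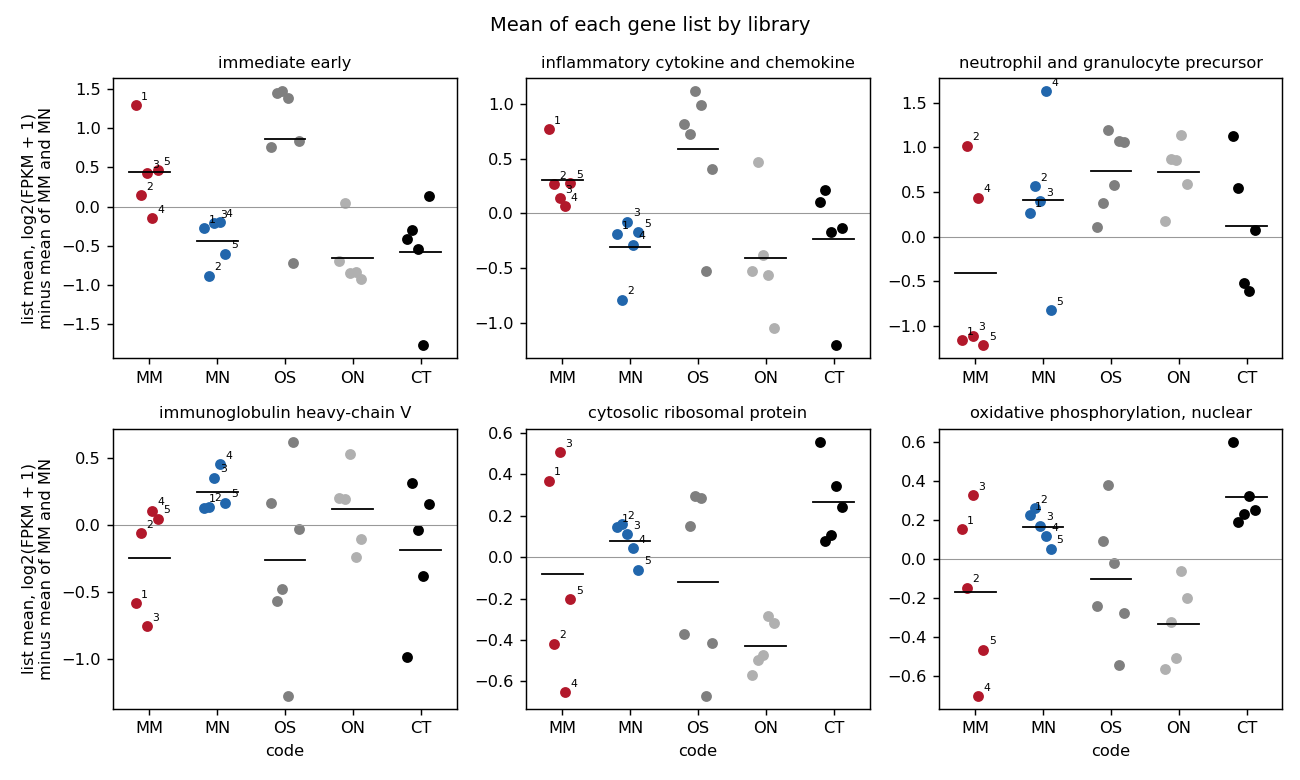
Mean log2(FPKM + 1) of 6 gene lists in each library, minus its mean over the MM and MN libraries, by code from MM to CT; MM and MN points carry their library number and the line is the mean of the code. The immediate early and the inflammatory lists have all MM points above all MN points, and the neutrophil list has MM 2 and MM 4 far above MM 1, MM 3 and MM 5.

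Neutrophil and granulocyte precursor genes lay below 0 in 24 of 24, with a median of -0.90, yet 0 were called and 2 had an unadjusted p below 0.05 (3.99% of all genes were lower at that level). S100a8, a calcium-binding protein of neutrophil granules and cytosol, had 270, 1210, 309, 814 and 249 FPKM in MM, against 1056, 1087, 1058, 2327 and 304 FPKM in MN. MM 2 and MM 4 sat with most MN libraries, MN 5 sat with the low MM libraries, and MN 4 was highest (log2 difference -1.08 ± 0.52, adjusted p = 0.691). Elane, neutrophil elastase, split the libraries in a like way, with 15.8, 134, 20.9, 66.8 and 13.2 FPKM in MM, against 61.6, 84.7, 60.8, 241 and 28.7 FPKM in MN. Cebpe, a factor of granulocyte maturation, had 1.55 to 15.7 FPKM in MM, against 6.01 to 28.7 FPKM in MN. The groups overlapped for all 3. The list mean of the 24 genes ran from -1.22 to 1.02 in MM, from -0.83 to 1.63 in MN, from 0.11 to 1.19 in OS, from 0.17 to 1.14 in ON and from -0.61 to 1.13 in CT. Without MM 2, MM 4 and MN 4 the median was -1.41. Of the 24, 22 were then lower at an unadjusted p below 0.05 and 0 were called. Over all genes tested, 1201 had an unadjusted p below 0.05 in that fit, in either direction. MM 2 and MM 4 had the highest list means in MM, 1.02 and 0.435, against -1.22 to -1.11 in the other MM libraries. Leaving them out therefore lowers MM on this list, while leaving out MN 4, at 1.63, lowers MN. The rise to 22 is thus no check of the difference. The eosinophil granule gene Prg2 split the same MM libraries, with 705 and 311 FPKM in MM 2 and MM 4 and 4.87 to 9.49 FPKM in the other 3, against 54.6 to 496 FPKM in MN. The part of granulocyte content in the 27 calls was not tested.

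Antigen receptor segments of B cells lay mostly below 0. Immunoglobulin heavy-chain V segments lay below 0 in 70 of 78, with a median of -0.45, and light-chain V segments in 94 of 109, with a median of -0.30, and 0 of either list were called. The heavy-chain list mean lay from -0.76 to 0.11 in MM, against 0.13 to 0.46 in MN, and the light-chain list mean from -0.43 to -0.02 in MM, against 0.11 to 0.29 in MN, with no overlap in either. For Ighv5-15 the values were 7.91, 9.68, 4.4, 9.48 and 7.15 FPKM in MM, against 17.2, 18.8, 14.0, 11.9 and 15.5 FPKM in MN (log2 difference -0.94 ± 0.23, adjusted p = 0.105). Igkv4-72 had 17.7 to 27.2 FPKM in MM, against 30.7 to 51.9 FPKM in MN (-0.83 ± 0.20, adjusted p = 0.0988). Neither overlapped, and V segments are near-identical copies whose reads may be split. B-cell genes lay above 0 in 11 of 16 (median 0.05) and plasma-cell genes in 8 of 13 (median 0.06). With MM 2, MM 4 and MN 4 left out these were 15 of 16 (median 0.222) and 11 of 13 (median 0.0963), and leaving out 1 library moved the B-cell median between -0.0238 (MM 1) and 0.231 (MM 2). Jchain, which joins IgA and IgM polymers, averaged 579 FPKM in MM and 508 FPKM in MN. Mzb1, a chaperone of antibody secretion, had 8.63 to 11.7 FPKM in MM, against 15.1 to 26.6 FPKM in MN, and Prdm1, the plasma-cell regulator Blimp-1, had 4.55 to 6.29 FPKM in MM, against 3.02 to 4.44 FPKM in MN. T-cell receptor V segments lay below 0 in 35 of 47 (median -0.14) and T-cell genes in 12 of 18 (median -0.10). For T-cell genes that sign could turn with 1 library left out, where the median ran from -0.247 to 0.115. MM 2 had the lowest T-cell list mean, -0.813, against -0.252 to 0.5 in the other MM libraries. Without MM 2, MM 4 and MN 4 T-cell genes lay above 0 in 18 of 18 (median 0.27). T-cell receptor V segments then had a median of 0.02, but with 1 library left out it stayed at -0.208 to -0.0594. Heavy-chain V segments kept their sign without the 3 libraries, with a median of -0.62.

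Genes of the respiratory chain encoded in the nucleus lay below 0 in 22 of 25, with a median of -0.23 and 0 called. With MM 2, MM 4 and MN 4 left out it was 16 of 25, with a median of -0.0996, and leaving out MM 4 or MM 3 alone gave medians of -0.129 and -0.415. Cox5b, a subunit of cytochrome c oxidase, had 47.0, 37.9, 48.9, 19.5 and 23 FPKM in MM, against 65.8, 63.4, 65.0, 67.3 and 59.3 FPKM in MN. MN was even, and MM 4 and MM 5 were the lowest (log2 difference -0.94 ± 0.26, adjusted p = 0.173). Ndufs6, a subunit of complex I, had 10.6 to 28.3 FPKM in MM, against 33.4 to 41.8 FPKM in MN (-1.07 ± 0.26, adjusted p = 0.107). Cytosolic ribosomal protein genes lay below 0 in 52 of 81, with a median of -0.11 and 0 called, and without MM 2, MM 4 and MN 4 above 0 in 55 of 81, with a median of 0.19. Members went both ways. Rps29 had 759, 402, 818, 288 and 364 FPKM in MM, against 1323, 1286, 1408, 1220 and 1277 FPKM in MN (-1.43 ± 0.41, adjusted p = 0.221), and Rpl30 had 13.1 to 35.2 FPKM in MM, against 5.62 to 7.89 FPKM in MN (1.65 ± 0.48, adjusted p = 0.230). Both separate the codes fully. Of 110 pseudogenes named after a ribosomal protein gene 1 was called higher and 4 lower (0.0574% and 0.115% of all genes). Among mitochondrially encoded genes mt-Co2 had 27.2 to 53.3 FPKM in MM, against 59.8 to 72.3 FPKM in MN, and the short mt-Atp8 0 to 1.10 FPKM in MM, against 1.42 to 2.57 FPKM in MN (adjusted p = 0.173), while mt-Co1 averaged 5176 FPKM in MM and 3791 FPKM in MN.

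Lists of immune responses and of cell division held no call. Type 2 response genes lay above 0 in 7 of 10 (median 0.03), type I interferon genes below 0 in 20 of 26 (median -0.13) and proliferation genes above 0 in 14 of 28 (median 0.00). Proliferation genes without MM 2, MM 4 and MN 4 lay below 0 in 25 of 28. Ctla4, an inhibitory receptor of T cells, had 5.49 to 20.5 FPKM in MM, against 3.38 to 7.76 FPKM in MN, with overlap (log2 difference 1.00 ± 0.40, adjusted p = 0.540). The monocyte antigen gene Ly6c2 had 3.87 to 7.14 FPKM in MM, against 7.49 to 15.4 FPKM in MN, without overlap (-0.85 ± 0.25, adjusted p = 0.218).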

How the data were processed

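The report concerns 10 poly(A) RNA-seq libraries from mouse spleen, 5 coded MM and 5 coded MN, read from the deposited gene table of 26 libraries. The authors deposited FPKM for 56392 genes. The submitters' processing notes list the aligner HISAT2 2.0.5, the counter featureCounts 1.5.0-p3 and the assembler StringTie 1.3.3b, beside CASAVA, edgeR 3.24.3 and DESeq2 1.20.0, with no account of each step. No source used here names the build, so the table's coordinates are not printed. Low values were whole multiples of 1 read (100% of values in every library, within 0.05 of a read), which gave the depth of each library and an alternative test on reads.

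Values were tested as log2(FPKM + 1), a scale that understates the change of low genes, for the 15672 genes that reached 1 FPKM in 5 or more libraries. limma 3.58.1 (R 4.3.3) fitted all 26 libraries with 1 mean for each of 5 codes and a trended variance, with Benjamini-Hochberg adjustment and a threshold of 0.05. The comparisons were MM against MN, MM and MN each against CT, the MM minus MN difference against that of OS minus ON, and, added after the values were seen, OVA (OS and ON) against CT. No 2 of the 10 MM and MN libraries were alike within sampling noise. Pseudogenes were aligned with BLAST to GENCODE vM21 coding transcripts, and promoters and the microRNA came from RefSeq.

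The members and the 50 gene lists (628 of 629 symbols matched) were chosen with earlier results of these data known. Named genes were the 15 per direction with the largest differences past the threshold and a mean of at least 1 FPKM in the higher code, filled by the smallest p-values, without predicted genes, pseudogenes and receptor segments, and some that the rule names are not reported here, and, in each list, up to 6 with the smallest p and up to 4 with the highest level. Alternatives were the pseudocount, the filter, the scaling, the libraries in the fit, library weights, a replicate block and each library left out.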

Additional observations from a re-analysis of the deposited data

Results flagged for a closer look

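A library was singled out where its gap to the nearest of the other 4 of its code passed Dixon's 95% critical value of 0.71. Of 254 groups examined (109 genes and 18 list means, each in MM and MN) 12 were singled out this way. Chance gives about 1 in 20, so 12 is about as many as chance alone would give. MN 4 accounted for 4 of the 12 and MM 2 for 3.

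In MN 4 the neutrophil granule genes were high: Elane had 241 FPKM against 28.7 to 84.7 in the other MN libraries, Ctsg 120 FPKM against 10.8 to 29.1, and the granulocyte factor Cebpe 28.7 FPKM against 6.01 to 12.5. The called pseudogene Gm11518 was lowest there, at 12.8 FPKM against 16.3 to 17.6. In MM 2 the chemokine Cxcl1 had 15.8 FPKM against 5.00 to 7.60 in the other MM libraries and Map1lc3b 23.8 FPKM against 19.2 to 20.3, and the B-cell list mean was -0.719 against 0.0797 to 0.312. MM 2 is the library with pancreas reads, whose part in these values was not tested.

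Of the others, MM 1 had 2.60 FPKM of Ighv1-15 against 5.47 to 6.55 in the other MM libraries. MN 5 had 23.9 FPKM of Map1lc3b against 19.9 to 20.9 and 13.2 FPKM of Smndc1 against 15.8 to 16.7 in the other MN libraries. MN 1 had 24.7 FPKM of Llph against 21.3 to 21.7, and MN 3 an immunoglobulin light-chain V list mean of 0.294 against 0.105 to 0.158. The pseudogene Gm12966 differed in the test of the MM minus MN difference against the OS minus ON difference, by -1.19 (limma, adjusted p = 0.0345), with all OS libraries above all ON libraries and MM and MN overlapping.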

How the results depend on the processing

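All 27 genes called between MM and MN kept their sign in every alternative in which they were tested. Their MM and MN values did not overlap, so leaving libraries out could not reverse a sign. The number of genes called between MM and MN rested on the libraries and on the estimate of spread more than on the scale. It was 23 and 25 with a pseudocount of 0.1 and 0.5, 24 with the filter at 10 libraries, 27 without the variance trend or with pancreas genes left out, 29 after median-ratio rescaling, 28 without MM 2, ON 2 and ON 3 and 22 by limma voom on the recovered reads. Without a filter it was 7 (4 higher, 3 lower, 1 in the gene lists), in a fit of the 10 MM and MN libraries alone 123 (53 higher, 70 lower, 28 in the lists) and with library weights 474 (184 higher, 290 lower, 67 in the lists), including 23 of the 27 in the fit of 10 libraries and all 27 with weights. With the authors' scaling undone, which moved the median of all genes to -0.05, there were 23, of which 5 higher. Leaving out 1 MM or MN library gave 1 to 26 calls, of which the lists held 1 to 7, and leaving out CT 4, chosen after seeing the data, gave 54. Over these 11 fits 1 to 20 genes were higher and 0 to 34 lower. Without MM 2, MM 4 and MN 4 the counts were 0 in all, 0 higher, 0 lower and 0 in the lists, with fewer libraries in the fit. The test against OS minus ON called 0 genes without a filter, in a fit of those 4 codes, without MM 2, ON 2 and ON 3 and without MM 2, MM 4 and MN 4, 69 with weights, and 0 to 3 with 1 library left out. MM against CT gave 518 calls with weights, 11 without MM 2, MM 4 and MN 4 and 20 to 70 with 1 library left out, and MN against CT gave 0 in every alternative run. OVA against CT gave 108 calls without MM 2, ON 2 and ON 3, 1435 with weights and 369 without CT 4.

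With the replicate number as a block, 20 genes were called between MM and MN (5 higher, 15 lower), 18 of them among the 27. Same-numbered MM and MN libraries deviated together little or not at all (r -0.0594 to 0.0901, with only numbers 4 and 5 closest to their own). The main fit did not pair libraries by number. The labels do not say whether the numbers pair them, and values this small cannot exclude a weak pairing.

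Differences near 0 changed sign, all in genes that were not called. Without MM 2, ON 2 and ON 3, Rpl34 was at 0.0168. Ppia was at -0.051 with weights, -0.0505 with the scaling undone and -0.00311 with pancreas genes left out. Without MM 2, MM 4 and MN 4, Rpl15 was at 0.178, Rpl34 at 0.281, Rpl31 at 0.126, Rpl13a at 0.197, Rpl21 at 0.0301, Rps25 at 0.111 and Rplp1 at 0.196. With 1 library left out, Ppia ran from -0.0977 to 0.0981, Rpl15 from -0.238 to 0.1, Rpl34 from -0.309 to 0.0828, Rpl13a from -0.279 to 0.0629, Rplp1 from -0.401 to 0.0314 and Map1lc3b from -0.0813 to 0.0138. The cause of these changes was not tested. The medians of the immediate early (0.685 to 1.2), inflammatory (0.355 to 0.889), neutrophil (-1.41 to -0.55) and heavy-chain V lists (-0.616 to -0.175) kept their sign throughout. Depth limits the genes near 1 FPKM, where 1 read per kilobase is worth 0.0544 to 0.0794 FPKM.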

Other observations

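Lists of other spleen cells and programmes held no call between MM and MN and stayed near the median of all genes. Megakaryocyte and platelet genes lay above 0 in 12 of 17 (median 0.11), red pulp macrophage and iron recycling genes in 9 of 15 (median 0.05) and genes of lymphoid stroma in 10 of 15 (median 0.13). Erythroid genes lay below 0 in 18 of 27 (median -0.08), dendritic cell genes in 12 of 15 (median -0.05) and germinal centre B-cell genes in 9 of 10 (median -0.18). Genes of NF-kappaB feedback lay above 0 in 10 of 13 (median 0.08), against the 0.63 of the inflammatory cytokines. Mitochondrial ribosomal protein genes lay below 0 in 53 of 76 (median -0.09) and genes of the microRNA machinery above 0 in 8 of 14 (median 0.03).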
